A study of Homo sapiens with 12 samples.

Results

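The genes described here encode the vacuolar H+-ATPase (V-ATPase), the proton pump that acidifies lysosomes and other compartments, with its accessory proteins, assembly factors and regulators. They were taken by name from a list of 34 genes. All 34 were present among the 54553 genes of the deposited files, and all 34 passed the filter on low counts that left 18047 genes for testing. RNA sequencing was done on Caco-2, a line from a human colon carcinoma whose cells can come to resemble enterocytes, and which the labels give as wild type in all groups and plated below confluence. The question was how these cells respond to nutrient depletion and to blocked lysosomal acidification. The 12 libraries form 4 groups of 3. Depleted medium with BafA1 and depleted medium with vehicle were given for 48 h in a DMEM base with 0.1 g/L glucose, 0.2 mM glutamine and 1% serum, with or without 100 nM bafilomycin A1 (BafA1). Rich medium with BafA1 and rich medium with vehicle used the growth medium, an EMEM base with 1 g/L glucose, 2 mM glutamine and 20% serum, with the same dose and time. Glucose, glutamine, serum and the base medium thus changed together, and their parts cannot be told apart. The labels do not say that replicates were separate cultures, so the p-values speak only of the spread among these 12 libraries, and that spread may be technical.

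The V-ATPase has a membrane-embedded V0 sector, which carries protons, and a cytosolic V1 sector, which hydrolyses ATP. Turning of the central rotor couples the sectors, and V1 can detach from V0 and be put back, a process helped by the RAVE complex in yeast and by RAVE-like proteins in animals. BafA1 binds the c ring of V0 and stops its rotation. Many subunits have paralogs, and in mammals some of these are known mainly from acid-secreting cells of kidney and bone, while others are found in most cells.

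Many lysosomal genes carry in their promoters the E-box CACGTG, which factors of the MiT/TFE family (TFEB, TFE3, MITF, TFEC) can bind. RefSeq promoter windows of GRCh38.p14, 250 bases before to 50 bases after an annotated start, were available for 24 of the 34 members, in 35 windows. CACGTG occurred in 4 of these 24 genes (16.7%), against 8.77% of the 27305 genes in the table. The longer motif TCACGTGA, which contains it, occurred in 2 of the 24 members (8.33%) against 1.18% of all genes. Both motifs read the same on either strand. The sites are shown, a choice made after the values were seen, because none of the members found to hold them passed the tests described further on. Each line gives 30 bases of the gene's own strand, 5′ to 3′, with CACGTG in capitals.
ATP6V0B, chr1:43974891-43974920, plus strand: ccggcgtggggtCACGTGgtaccggcgcat
ATP6V0B, chr1:43974909-43974938, plus strand: gtaccggcgcatCACGTGggcgagttaggt
ATP6V0D1, chr16:67481199-67481228, minus strand: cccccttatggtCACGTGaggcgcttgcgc
ATP6V0E2, chr7:149872884-149872913, plus strand: tcccttctgcatCACGTGgggactgcgcct
ATP6V1G1, chr9:114587699-114587728, plus strand: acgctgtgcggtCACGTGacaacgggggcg
The motif began 57 and 39 bases before the start in ATP6V0B, 59 bases before it in ATP6V0D1, 72 or 68 bases before 2 alternative starts in ATP6V0E2, and 58 bases before it in ATP6V1G1. Of the 10 members with a window that passed the test in any comparison, 0 held CACGTG, and none of the 4 genes that held it passed. ATP6V1A, ATP6V1H and CCDC115 also passed but had no window, so whether they hold the motif is not known here. ATP6V0B and ATP6V0D1, which hold it, passed in some of the alternative fits given below. A match is a run of letters and says nothing of what binds there, and no match says only that these letters are not in the window used.

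The libraries held 12969814 to 51649213 reads assigned to genes, and the members took 0.182% to 0.215% of them. Rich vehicle replicate 1 was the shallowest, with 17485 genes detected, and the other 11 libraries held at least 33859998 reads. Across the 18047 tested genes, replicate 3 of rich medium with BafA1 had Spearman correlations of 0.985 to 0.990 with the depleted vehicle libraries and 0.985 with the other libraries of its own group, where replicate 1 had 0.992 with its nearest. Fits without these 2 libraries are given beside the results. The epithelial and enterocyte markers were all tested, 14 of 14, and their summed level ran from 1700 to 2630 TPM, the deposited abundance per gene length, in depleted medium with BafA1, 3300 to 3510 TPM in depleted vehicle, 3700 to 5250 TPM in rich medium with BafA1 and 5410 to 8790 TPM in rich vehicle. Fibroblast and endothelial markers summed to 4.8 to 19.8 TPM and immune markers to 6.58 to 29.6 TPM, with MS4A1 at 0 in all libraries. Markers of osteoclasts and intercalated cells, the cells known for restricted pump isoforms, summed to at most 1.95 TPM, with OCSTAMP and DCSTAMP at 0. Summed TPM is not strictly comparable between libraries, and KRT8 and KRT18, keratins of simple epithelia, were much of the epithelial sum. In the test on counts described below, both were lower in all 4 pairwise comparisons (log2 fold changes of -1.23 and -1.48 for depletion in vehicle). Other epithelial markers moved the other way: ALPI, CDX2 and HNF4A were higher with depletion in vehicle and with BafA1 in rich medium, so 3 of 14 were higher in each, against 3 and 2 lower. With BafA1 in depleted medium 0 were higher and 5 lower, with depletion under BafA1 0 and 8, and in the interaction 0 and 3. The part of these markers in the results was not tested.

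By levels per gene length, a c ring gene and a rotor gene stood highest. ATP6V0C, which encodes the c subunit that BafA1 binds, averaged 178 TPM over the 12 libraries (range 101 to 404). ATP6V1F of the rotor averaged 131 TPM, and in the 3 libraries of depleted medium with BafA1 it exceeded ATP6V0C (160, 149 and 111 TPM against 133, 146 and 101 TPM). Next by mean were the accessory protein ATP6AP1 at 93.2 TPM and ATP6V0D1 at 82.2 TPM. The catalytic ATP6V1A stood at 47.0 TPM on the same scale. The ranges of neighbours in this order overlapped, so the order of genes next to each other is not settled by these libraries. At the other end, ATP6V1E2, TCIRG1, ATP6V1C2, ATP6V0A4, ATP6V1G2 and ATP6V0D2 averaged between 0.284 and 1.96 TPM, and ATP6V1B1 2.52 TPM. Each of these 7 low genes is a paralog known mainly from certain tissues. ATP6V0E2, also classed here as a tissue-restricted paralog, was not low, with a mean of 35.7 TPM. The RAVE-like members DMXL2 and WDR7 stood at 2.96 and 2.91 TPM, while DMXL1 stood at 13.5 TPM. The summed TPM of the subunit genes ranged from 685 to 1320 between libraries, so apart from the marker sums above TPM was used to compare genes and shares within a library, and CPM, counts scaled to library size with TMM factors, to compare libraries.

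**Figure D1:**
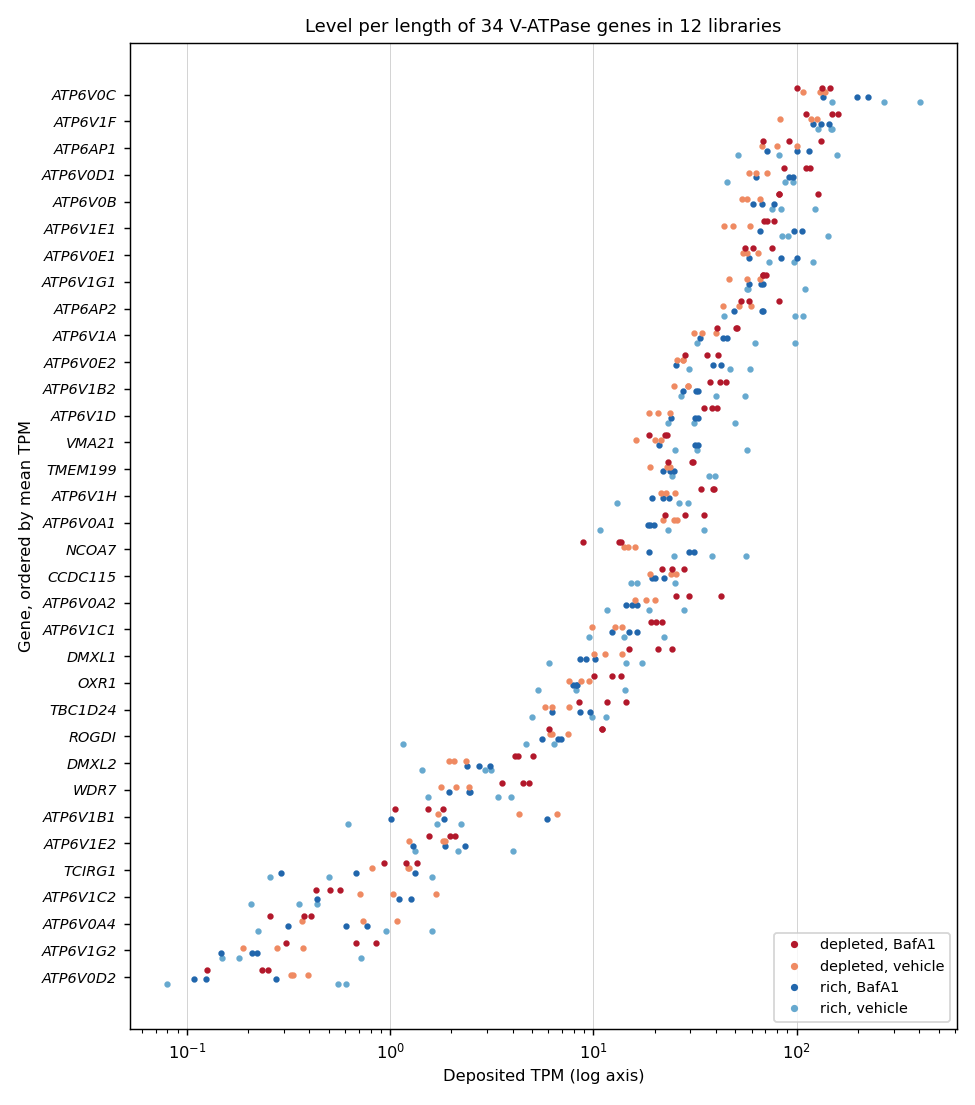
Deposited TPM (log axis) of each of the 34 genes, ordered by mean, with a point for each of the 12 libraries coloured by group. ATP6V0C has the highest mean, with 101 to 404 TPM. Of the tissue-restricted paralogs, 7 lie at or below a mean of 2.52 TPM, and ATP6V0E2 has a mean of 35.7 TPM.

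Shares within a subunit showed which paralogs supplied the transcripts. Subunit a was supplied by ATP6V0A1 (44.2% to 55.7% of the summed TPM of the 4 a genes) and ATP6V0A2 (39.7% to 53.6%), and TCIRG1 and ATP6V0A4 together gave the small remainder. In the replicates of depleted medium with BafA1 the ATP6V0A2 share was 49.8%, 53.6% and 51.9%, against 40.7%, 42.6% and 39.7% in depleted vehicle, 45.9%, 43.3% and 39.7% in rich medium with BafA1 and 42.7%, 42.6% and 49.5% in rich vehicle. The 3 libraries with both treatments lay above the other 9. ATP6V0E2 gave 28.7% to 37.4% of subunit e. ATP6V1B1, known from kidney and inner ear, gave 1.10% to 18.5% of subunit B, and ATP6V1C2 gave 0.919% to 11.7% of subunit C. Both of these shares varied widely between replicates and were highest in replicate 3 of depleted vehicle. ATP6V0D2, ATP6V1E2 and ATP6V1G2 stayed at or below 0.682%, 3.69% and 1.23% of their subunits. These shares are descriptions and were not tested.

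**Figure D2:**
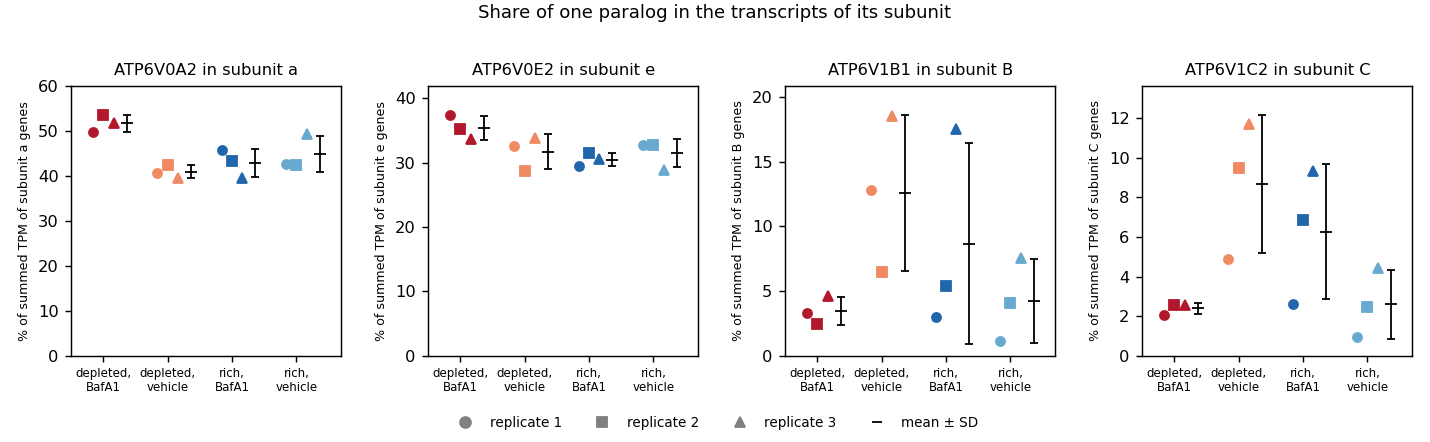
Share of ATP6V0A2, ATP6V0E2, ATP6V1B1 and ATP6V1C2 in the summed TPM of their subunit's genes (percent), by group, with a marker for each replicate and the mean ± SD beside it. The ATP6V0A2 share is 49.8% to 53.6% in depleted medium with BafA1 and at most 49.5% elsewhere.

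Blocking the pump in rich medium moved no member past the threshold. With edgeR's quasi-likelihood test and Benjamini-Hochberg adjustment over the 18047 genes, the basis of every adjusted p given here, 0 of 34 members were called at an adjusted p under 0.05, against 10.9% of all tested genes (6.15% higher and 4.78% lower). At an unadjusted p under 0.05 there were 5 members. The share over all genes at that cut is not given here and is at least 10.9%, so the count does not show an excess. The DESeq2 test called 2, ATP6V0D1 and ATP6V1C2, against 16.6% of all tested genes. The median log2 fold change was -0.02 over the members and 0.02 over all tested genes. Leaving out rich vehicle replicate 3 gave 2 calls, ATP6V1C2 and ATP6V1F, against 12% of all tested genes. Leaving out replicate 1 or 3 of rich medium with BafA1 gave 1 each, against 6.38% and 5.42%. Without both libraries that stood apart there was 1 call, against 5.45%. In bulk RNA, a change in the number of cells of a kind and a change in RNA per cell cannot be told apart, here and in the results that follow.

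Nutrient depletion moved some members up and others down. In vehicle, 8 of 34 members (23.5%) were called between depleted and rich medium, against 30.9% of all tested genes, and so not a larger share. ATP6V1C2, ATP6V1H and CCDC115 rose (3 members, against 15.5% of all genes), and ATP6V0C, ATP6V1A, ATP6V1E1, VMA21 and NCOA7 fell (5 members, against 15.4%). The median was -0.09 over the members and 0.04 over all genes on the log2 scale. Without replicate 1 of depleted vehicle there were 3 calls, against 20.2% of all tested genes, and without its replicate 3 also 3, against 22.8%. With only the 6 libraries compared there were 4, against 22.2%. Without both libraries that stood apart there were 11, of which 6 were among the 8, against 32% of all tested genes.

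BafA1 in depleted medium raised 2 of the 4 RAVE-like members. Of 34 members, 5 were called (14.7%), against 11.4% of all tested genes. The a2 subunit gene ATP6V0A2, the rotor gene ATP6V1D and the RAVE-like DMXL2 and WDR7 rose (4 members, against 5.5% of all genes), and NCOA7 fell (1 member, against 5.91%). The median log2 fold change was 0.07 over the members and -0.03 over all genes. The count depended on which libraries set the spread, as did the share of all tested genes called, given in brackets. The count was 13 with only the 6 libraries compared (24.9%), 12 without both libraries that stood apart (18.6%), and 9 with the DESeq2 test (16.6%). It was 10 without rich vehicle replicate 1 (16.5%) and 8 without its replicate 2 (14.1%). It was 3 without replicate 1 (9.05%) or 2 (9.27%) of rich medium with BafA1 and 3 without depleted vehicle replicate 2 (5.52%). It was 2 without replicate 1 (5.53%) or 3 (6.79%) of depleted vehicle. It was also 2 without replicate 2 (5.5%) or 3 (4.7%) of depleted medium with BafA1.

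Depletion under BafA1 gave 8 called members of 34 (23.5%), against 24.1% of all tested genes. ATP6V0A2, ATP6V1H, DMXL1, DMXL2 and WDR7 rose (5 members, against 10.5% of all genes), and ATP6V0C, VMA21 and NCOA7 fell (3 members, against 13.6%). The medians were 0.05 over the members and 0.01 over all genes on the log2 scale. There were 5 calls without replicate 2 of rich medium with BafA1, against 12.6% of all tested genes. Without both libraries that stood apart there were 11, 7 of them among the 8, against 32.4%. Each group of libraries serves in 2 of the pairwise comparisons, so a gene's values in comparisons that share a group are given side by side, and their likeness is not a result.

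The interaction, which sets the BafA1 response in depleted medium against the one in rich medium (first minus second), called 2 of 34 members (5.88%), against 6.18% of all tested genes. WDR7 was higher (2.35% of all genes were) and ATP6V1C2 lower (3.83% were). The median was 0.09 over the members and -0.05 over all genes. Neither call held without both libraries that stood apart, where 0 members were called by edgeR, against 4.28% of all tested genes. Leaving out replicate 2 or 3 of rich medium with BafA1, replicate 2 or 3 of depleted vehicle, or any 1 of the 3 libraries of depleted medium with BafA1 also gave 0 calls. The share of all tested genes was 2.25% to 4.3% in those fits. Only ATP6V1C2 was called without replicate 1 of rich medium with BafA1 (4.07% of all tested genes) or without replicate 1 of depleted vehicle (2.12%). Without rich vehicle replicate 1 the 1 call was another member, ATP6V0B (log2 value 0.95, adjusted p = 0.048), against 5.58% of all tested genes. Over the 5 comparisons 13 of 34 members (38.2%) were called in at least 1, against 45.1% of all tested genes.

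**Figure D3:**
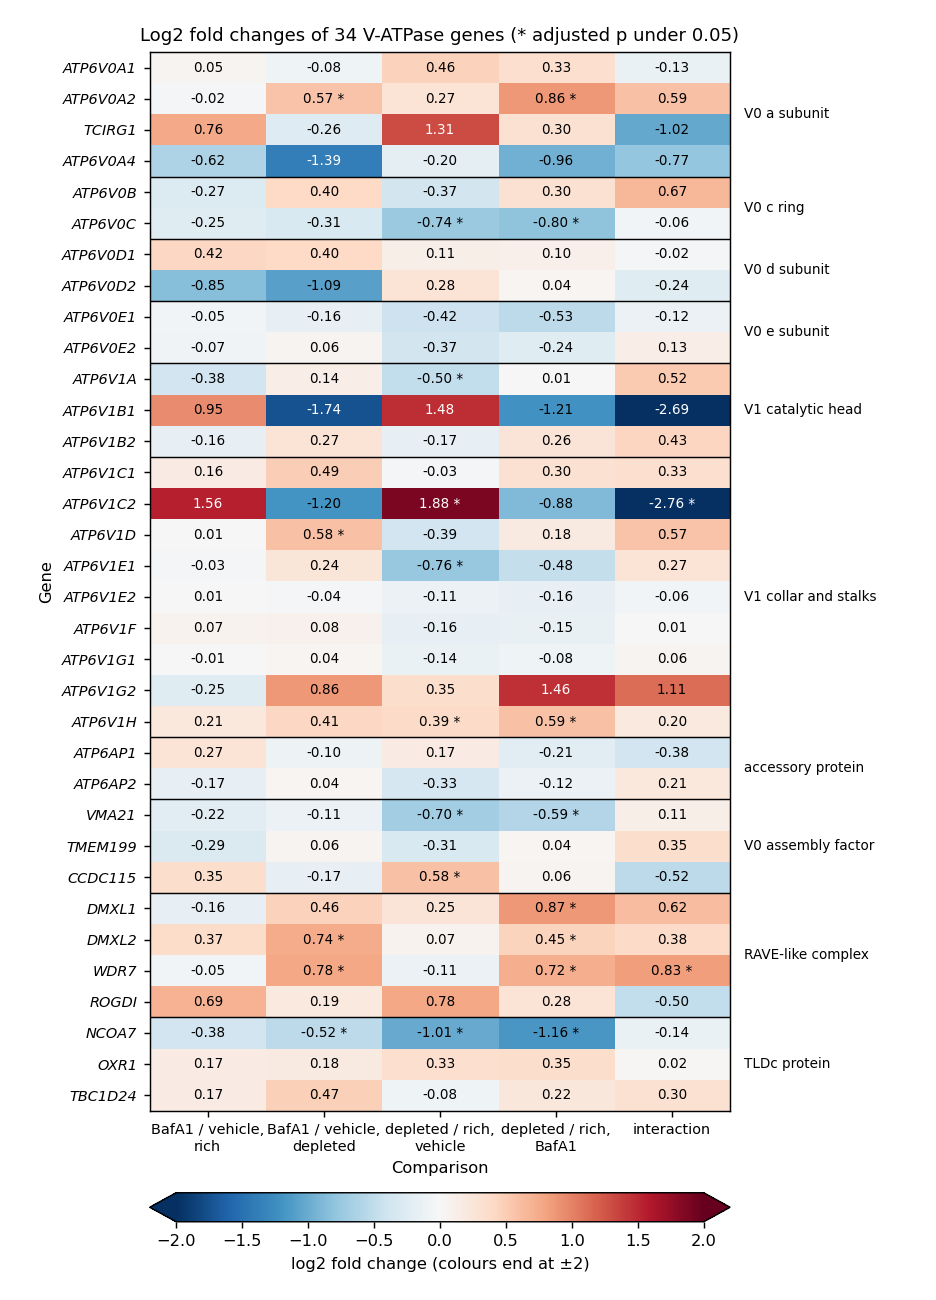
Log2 fold change of each of the 34 genes (rows, grouped by role) in the 5 comparisons (columns), with an asterisk where the adjusted p was under 0.05. No gene has an asterisk for BafA1 in rich medium, and NCOA7 has one in each of the other 3 pairwise comparisons.

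Among the a subunits of V0, which with the ring form the proton path, ATP6V0A2 was the called gene. It encodes the a2 isoform of Golgi and endosomes and lies on chromosome 12, 123712353 to 123761755 (GRCh38.p14). It stood at 75.2, 107 and 87.1 CPM in replicates 1, 2 and 3 of depleted medium with BafA1 and at 54.8, 72.8 and 54.1 CPM in depleted vehicle, against 51.1, 49.6 and 47.6 CPM in rich medium with BafA1 and 43.5, 60.1 and 46.7 CPM in rich vehicle. The libraries with both treatments lay above all others, and the other groups overlapped except the 2 that had 1 treatment each. Its log2 fold change was 0.57 for BafA1 in depleted medium (SE 0.17, adjusted p = 0.047) and 0.86 for depletion under BafA1 (SE 0.18, adjusted p = 0.0026). It was -0.02 for BafA1 in rich medium (adjusted p = 0.96) and 0.59 for the interaction (adjusted p = 0.17). The call for depletion under BafA1 held in all 21 alternatives run. The call for BafA1 in depleted medium was lost in 8 of 21, namely without any 1 library of rich medium with BafA1, without replicate 1 or 3 of depleted vehicle, without replicate 2 or 3 of depleted medium with BafA1, and with effective lengths in the fit.

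The other a genes were not called. ATP6V0A1, the a1 isoform, ranged from 51.7 to 103 CPM over the 12 libraries, and its log2 fold change for depletion in vehicle was 0.46 (adjusted p = 0.084). TCIRG1, the a3 isoform of osteoclasts, ranged from 0.752 to 3.90 CPM and stood 1.31 higher on the log2 scale in depleted than in rich vehicle, with an adjusted p of 0.054 and groups that did not overlap. TCIRG1 overlaps CHKA on the other strand, a gene with 66333 reads in all against 1056 for TCIRG1. CHKA itself rose by 0.46 in that comparison (adjusted p = 0.024), and since the strand setting of the counting is not given in the sources used here, reads of the pair cannot be told apart. ATP6V0A4, the a4 isoform of kidney intercalated cells, ranged from 0.372 to 3.22 CPM.

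In the c ring, which carries protons through the membrane, ATP6V0C was lower in depleted medium under both treatments. This gene of the c subunit lies on chromosome 16, 2513726 to 2520218. It stood at 83.7, 86.1 and 87.3 CPM in depleted medium with BafA1 and at 97.6, 126 and 95.7 CPM in depleted vehicle, against 152, 175 and 121 CPM in rich medium with BafA1 and 129, 239 and 165 CPM in rich vehicle. Every depleted library lay below every rich library of the same treatment, and rich vehicle had the widest spread. ATP6V0C fell by 0.74 on the log2 scale in depleted vehicle (SE 0.21, adjusted p = 0.014) and fell by 0.80 in depleted medium with BafA1 (SE 0.21, adjusted p = 0.011), each against rich medium. For BafA1 the log2 fold changes were -0.31 in depleted medium (adjusted p = 0.38) and -0.25 in rich medium (adjusted p = 0.47). The vehicle call was lost without rich vehicle replicate 2, without replicate 1 or 3 of depleted vehicle, and with only the 6 libraries compared. The call under BafA1 was lost without replicate 2 of rich medium with BafA1. Pseudogene copies took few reads: ATP6V0CP4 held 0.484% as many as ATP6V0C. ATP6V0B, the other ring gene, encodes the c″ subunit, ranged from 34.6 to 84.0 CPM and was not called in any comparison.

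Subunit d links the ring to the rotor of V1. ATP6V0D1, its widely expressed gene on chromosome 16, 67438019 to 67481157, missed the threshold with BafA1 in both media. It stood at 114, 112 and 117 CPM in depleted medium with BafA1, against 86.5, 84.0 and 89.6 CPM in depleted vehicle. In rich medium it stood at 117, 115 and 89.9 CPM with BafA1, against 77.8, 82.3 and 80.3 CPM with vehicle. The BafA1 libraries lay above the vehicle libraries in each medium, with replicate 3 of rich medium with BafA1 nearest to its vehicle group. The log2 fold changes were 0.40 in depleted medium (95% interval 0.09 to 0.71, adjusted p = 0.064) and 0.42 in rich medium (0.11 to 0.73, adjusted p = 0.058). Without replicate 3 of rich medium with BafA1 both passed, and over all alternatives the adjusted p ranged from 0.016 to 0.24 in depleted medium and from 0.026 to 0.27 in rich medium. The interaction was -0.02 (95% interval -0.45 to 0.42). ATP6V0D1 is one of the members with TCACGTGA in the promoter window, at the site printed above, and was singled out here after its values were seen. ATP6V0D2, the osteoclast and kidney isoform, ranged from 0.205 to 0.875 CPM and was not called.

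Subunit e is a small membrane protein of V0. ATP6V0E1 ranged from 55.3 to 110 CPM, and its log2 fold change for depletion under BafA1 was -0.53 (adjusted p = 0.059). ATP6V0E2 ranged from 36.6 to 60.4 CPM. Neither gene was called in any comparison. ATP6V0E1 hosts the small nucleolar RNA SNORA74B and ATP6V0E2 overlaps an antisense gene, ATP6V0E2-AS1, with 11.8% as many reads.

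The catalytic head of V1 is built from subunits A and B, which hold the ATP sites. ATP6V1A, on chromosome 3, 113747035 to 113812056, stood at 160, 153 and 174 CPM in depleted medium with BafA1 and at 150, 143 and 149 CPM in depleted vehicle, against 174, 163 and 145 CPM in rich medium with BafA1 and 274, 183 and 171 CPM in rich vehicle. The 3 rich vehicle libraries lay above the 3 depleted vehicle libraries, and the shallow rich vehicle replicate 1 lay above all others. It fell by 0.50 on the log2 scale in depleted vehicle against rich vehicle (SE 0.17, adjusted p = 0.038). Without rich vehicle replicate 1 the call was lost, and it was lost in 10 of 21 alternatives in all, with an adjusted p of up to 0.16 and a log2 fold change of -0.26 at its smallest. The other losses came without replicate 1 or 2 of rich medium with BafA1, without any 1 of the depleted vehicle libraries, without replicate 1 or 2 of depleted medium with BafA1, without both libraries that stood apart, and with only the 6 libraries compared. Under BafA1 the depletion value was 0.01 (95% interval -0.38 to 0.41). ATP6V1B2, the widely expressed B gene, ranged from 78.8 to 108 CPM and was not called.

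ATP6V1B1 was scattered at low counts. It stood at 1.99, 1.28 and 3.22 CPM in depleted medium with BafA1 and at 6.52, 3.24 and 11.9 CPM in depleted vehicle, against 1.57, 2.85 and 10.6 CPM in rich medium with BafA1 and 0.595, 2.02 and 4.82 CPM in rich vehicle. Replicate 3 was the highest of each group, as it also was for ATP6V1C2, TMEM199 and CCDC115, 4 of the 34 members. Its interaction value was -2.69 (SE 1.07, adjusted p = 0.16), and no comparison called it.

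Of the collar and stalk subunits of V1, which anchor the head and pass rotation to the ring, 4 of 9 genes were called in some comparison, against 45.1% of all tested genes. ATP6V1C2, on chromosome 2, 10720943 to 10785110, encodes the tissue-restricted form of subunit C, the clamp that is let go when V1 detaches. It stood at 0.938, 1.18 and 1.49 CPM in depleted medium with BafA1 and at 1.75, 2.35 and 4.19 CPM in depleted vehicle, against 1.05, 1.89 and 3.69 CPM in rich medium with BafA1 and 0.372, 0.690 and 1.07 CPM in rich vehicle. By mean the groups with 1 treatment lay highest and rich vehicle lowest, and the groups with BafA1 overlapped each other. ATP6V1C2 rose by 1.88 on the log2 scale with depletion in vehicle (SE 0.51, adjusted p = 0.012), the highest value among the called members there. BafA1 gave -1.20 in depleted medium (adjusted p = 0.13) and 1.56 in rich medium (adjusted p = 0.063), neither called, and the interaction was -2.76 (SE 0.70, adjusted p = 0.033). The depletion call was lost without depleted vehicle replicate 3, at an adjusted p of 0.067.

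The interaction of ATP6V1C2 was lost in 9 of 19 alternatives, among them the fits without rich vehicle replicate 1 (adjusted p = 0.053), without replicate 3 of rich medium with BafA1 (0.091) and without both (log2 value -1.93, adjusted p = 0.099). The gene held 825 reads in all 12 libraries and as few as 5 in 1 library. It overlaps PDIA6 on the other strand over 1720 bases, and PDIA6 held 181856 reads. Reads within that overlap cannot be told apart without the strand setting. The overlap was taken over whole genes and not exons, so it does not show that reads are shared. PDIA6 was not called in any comparison, with an interaction value of -0.32 (adjusted p = 0.57). LOC105373428, which lies within the same locus with 559 reads, was not called either.

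ATP6V1E1, on chromosome 22, 17592136 to 17628822, encodes subunit E of the outer stalks. It stood at 59.9, 61.5 and 77.0 CPM in depleted medium with BafA1 and at 47.4, 52.2 and 67.8 CPM in depleted vehicle, against 105, 96.8 and 75.6 CPM in rich medium with BafA1 and 95.0, 69.2 and 118 CPM in rich vehicle. Every depleted vehicle library lay below every rich vehicle library, by a narrow gap at its closest, and under BafA1 the media overlapped. It fell by 0.76 on the log2 scale with depletion in vehicle (SE 0.21, adjusted p = 0.011), a call lost without rich vehicle replicate 3 or without depleted vehicle replicate 1. Under BafA1 the depletion value was -0.48 (SE 0.20, adjusted p = 0.10).

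ATP6V1H encodes subunit H, which bridges stalk and head and silences ATP hydrolysis in free V1. It stood at 54.2, 51.6 and 64.2 CPM in depleted medium with BafA1 and at 41.3, 43.1 and 43.3 CPM in depleted vehicle, against 39.5, 36.3 and 37.0 CPM in rich medium with BafA1 and 33.3, 33.9 and 30.3 CPM in rich vehicle. The 4 groups did not overlap at all. It rose by 0.59 on the log2 scale with depletion under BafA1 (SE 0.13, adjusted p = 0.0054) and by 0.39 with depletion in vehicle (SE 0.14, adjusted p = 0.039). The BafA1 values were 0.41 in depleted medium (adjusted p = 0.060) and 0.21 in rich medium (adjusted p = 0.34). The call under BafA1 held in all 21 alternatives, while the vehicle call was lost in 11, 8 of them fits without 1 library: rich vehicle replicate 3, replicate 1 or 2 of rich medium with BafA1, any of depleted vehicle, and replicate 1 or 2 of depleted medium with BafA1. Its log2 fold change stayed between 0.35 and 0.43 in these.

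ATP6V1D, on chromosome 14, 67337872 to 67359804, encodes subunit D of the central rotor. It stood at 39.8, 40.4 and 49.8 CPM in depleted medium with BafA1 and at 28.9, 28.3 and 29.5 CPM in depleted vehicle, against 39.8, 40.7 and 34.3 CPM in rich medium with BafA1 and 43.5, 30.2 and 40.3 CPM in rich vehicle. The depleted vehicle libraries lay below all others. It rose by 0.58 on the log2 scale with BafA1 in depleted medium (SE 0.16, adjusted p = 0.030). That call was lost without any 1 of the depleted vehicle libraries and without replicate 2 or 3 of depleted medium with BafA1. ATP6V1D lies within the span of GPHN, a gene of the other strand with 9582 reads against 17352. The overlap was taken over whole genes and not exons, so it does not show that reads are shared. GPHN itself gave 0.26 with BafA1 in depleted medium (adjusted p = 0.45).

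The other V1 genes were not called. ATP6V1C1, the widely expressed C gene, ranged from 51.3 to 103 CPM, and BafA1 in depleted medium gave 0.49 on the log2 scale (adjusted p = 0.071) with groups that did not overlap. ATP6V1F and ATP6V1G1, of rotor and stalk, ranged from 37.9 to 88.6 CPM and from 52.1 to 94.3 CPM, and all of their pairwise log2 fold changes lay between -0.16 and 0.08. Without rich vehicle replicate 3, ATP6V1F gave 0.59 for BafA1 in rich medium (adjusted p = 0.042). ATP6V1E2 and ATP6V1G2, known from testis and brain, stood at 2.79 to 4.86 CPM and at 0.106 to 0.715 CPM. ATP6V1G2 had 149 reads in all and shares its locus with the readthrough transcript ATP6V1G2-DDX39B, and ATP6V1E2 overlaps RHOQ on the other strand.

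The accessory proteins ATP6AP1, which guides V0 assembly, and ATP6AP2, the prorenin receptor, showed no call. ATP6AP1 ranged from 86.8 to 197 CPM and ATP6AP2 from 77.6 to 147 CPM, and their pairwise log2 fold changes lay between -0.33 and 0.27.

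The V0 assembly factors of the endoplasmic reticulum gave calls in opposite directions. VMA21, the chaperone that escorts V0 out of that compartment, lies on chromosome X, 151396595 to 151409364. It stood at 73.4, 70.1 and 83.0 CPM in depleted medium with BafA1 and at 81.3, 75.5 and 87.4 CPM in depleted vehicle, against 125, 124 and 91.6 CPM in rich medium with BafA1 and 168, 96.3 and 135 CPM in rich vehicle. All 6 depleted libraries lay below all 6 rich libraries. VMA21 fell by 0.70 on the log2 scale with depletion in vehicle (SE 0.19, adjusted p = 0.011), a call held in all 21 alternatives. It fell by 0.59 with depletion under BafA1 (SE 0.19, adjusted p = 0.033), a call lost without replicate 1 or 2 of rich medium with BafA1 or without any 1 library of depleted medium with BafA1. CCDC115, a partner in V0 assembly related to yeast Vma22p, stood at 29, 31.3 and 35.1 CPM in depleted medium with BafA1 and at 33.8, 32.3 and 41.2 CPM in depleted vehicle, against 31.2, 27.5 and 33.0 CPM in rich medium with BafA1 and 23.4, 17.6 and 30.7 CPM in rich vehicle. The vehicle groups were separate and the BafA1 groups overlapped. It rose by 0.58 with depletion in vehicle (SE 0.19, adjusted p = 0.032), a call lost without rich vehicle replicate 1 or 2, without depleted vehicle replicate 1 or 3, without both libraries that stood apart and with only the 6 libraries compared. TMEM199, related to yeast Vma12p, ranged from 56.2 to 85.3 CPM and was not called.

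**Figure D4:**
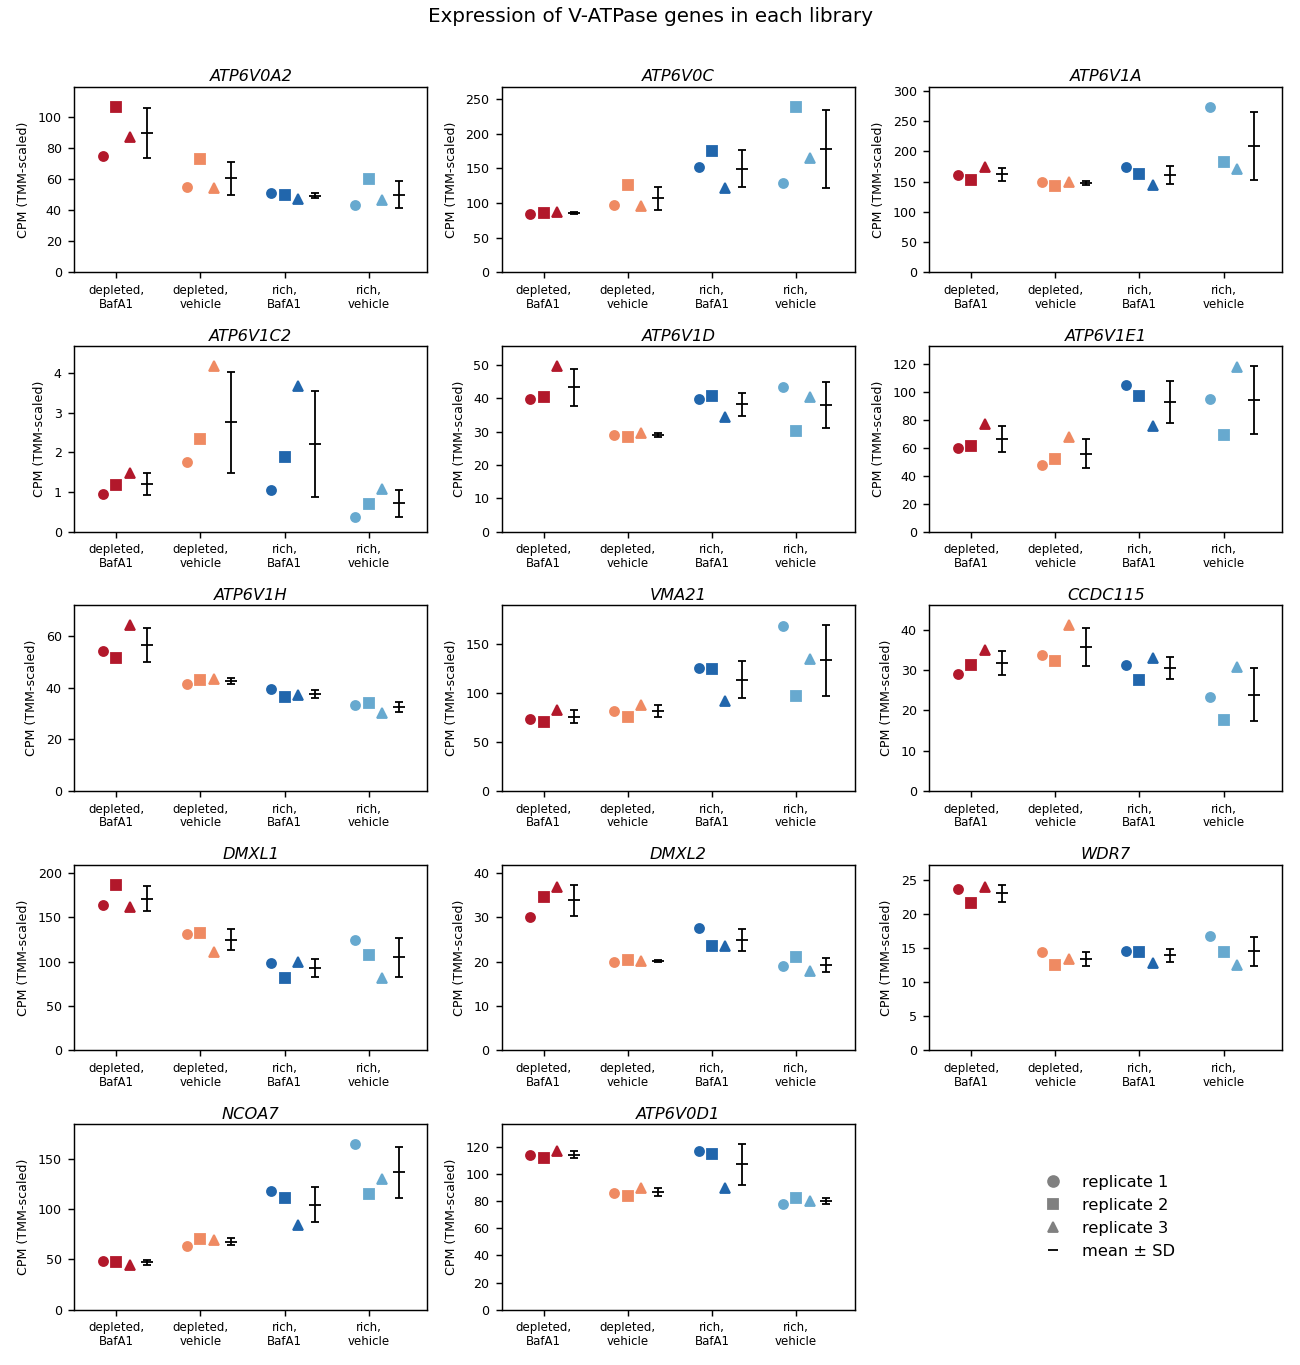
CPM (TMM-scaled, axes from 0) of the 13 members called in any comparison and of ATP6V0D1, by group, with a marker for each replicate and the mean ± SD beside it. NCOA7 and VMA21 lie lower in both depleted groups than in both rich groups, and WDR7 lies at 21.7 to 24.0 CPM in depleted medium with BafA1 and at most 16.8 CPM in the other groups.

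The RAVE-like complex, which in animals helps load V1 onto V0, has 4 members here, of which 3 were called in some comparison, against 45.1% of all tested genes. A share of so few genes carries little weight. All 3 were highest in depleted medium with BafA1. DMXL2, a rabconnectin-3 alpha gene on chromosome 15, 51447791 to 51622771, stood at 30.0, 34.6 and 36.9 CPM there and at 20.0, 20.4 and 20.2 CPM in depleted vehicle, against 27.6, 23.5 and 23.4 CPM in rich medium with BafA1 and 19.0, 21.0 and 17.8 CPM in rich vehicle. The depleted BafA1 libraries lay above all others, and the vehicle groups overlapped. DMXL2 rose by 0.74 on the log2 scale with BafA1 in depleted medium (SE 0.15, adjusted p = 0.0055), a call held in all 21 alternatives. It rose by 0.45 with depletion under BafA1 (SE 0.15, adjusted p = 0.040), which was lost in 11 of 21, including the fits without replicate 1, 2 or 3 of rich medium with BafA1, 1, 2 or 3 of depleted vehicle, and 2 or 3 of depleted medium with BafA1. BafA1 in rich medium gave 0.37 (95% interval 0.02 to 0.71, adjusted p = 0.13).

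WDR7, the rabconnectin-3 beta gene, lies on chromosome 18, 56651359 to 57036606. It stood at 23.7, 21.7 and 24.0 CPM in depleted medium with BafA1 and at 14.5, 12.5 and 13.4 CPM in depleted vehicle, against 14.6, 14.5 and 12.9 CPM in rich medium with BafA1 and 16.8, 14.4 and 12.5 CPM in rich vehicle. The first group stood alone and the other 3 groups overlapped. WDR7 rose by 0.78 with BafA1 in depleted medium (SE 0.16, adjusted p = 0.0067), the highest log2 fold change among the called members there. It rose by 0.72 with depletion under BafA1 (SE 0.16, adjusted p = 0.0049), and both calls held in all 21 alternatives. BafA1 in rich medium gave -0.05 (95% interval -0.43 to 0.32), and the interaction was 0.83 (SE 0.23, adjusted p = 0.045). The interaction was kept in 8 of 20 alternatives. It was lost without rich vehicle replicate 1, without any 1 library of the other 3 groups, without both libraries that stood apart (0.67, adjusted p = 0.085) and with no filter on low counts, and its log2 value stayed between 0.67 and 0.92.

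DMXL1, the other rabconnectin-3 alpha gene, lies on chromosome 5, 119071027 to 119249127. It stood at 164, 187 and 162 CPM in depleted medium with BafA1 and at 131, 132 and 111 CPM in depleted vehicle, against 98.4, 81.7 and 100 CPM in rich medium with BafA1 and 125, 108 and 81.4 CPM in rich vehicle. The depleted BafA1 libraries again lay above all others. DMXL1 rose by 0.87 with depletion under BafA1 (SE 0.17, adjusted p = 0.0018), held in all 21 alternatives and the highest among the called members there. BafA1 in depleted medium gave 0.46 (adjusted p = 0.088) and the interaction 0.62 (adjusted p = 0.13). ROGDI, the short partner, ranged from 0.744 CPM in rich vehicle replicate 1 to 9.83 CPM and was not called.

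DMXL1, DMXL2 and WDR7 are also long genes, with 11421, 10405 and 7080 bases in the deposited files, and ROGDI has 1363. The median gene length minus effective length, a quantity that grows with fragment length, was 172, 179 and 195 bases in depleted medium with BafA1 and 200 to 275 bases in the other 9 libraries. Across the 18047 genes, length had a Spearman correlation with the log2 fold change of 0.101 for BafA1 in depleted medium and 0.114 for depletion under BafA1, values that describe genes sharing the same libraries. The 3453 genes of at least 5000 bases had median log2 fold changes of 0.03 and 0.10 in these comparisons, against -0.04 and -0.01 for shorter genes. Of the long genes 8.75% and 16.6% were called higher, against 4.73% and 9.05% of the shorter ones. With effective lengths entered in the fit, an alternative chosen after seeing the data, every call of DMXL1, DMXL2 and WDR7 held. Gene length minus effective length, at 172 to 275 bases, is small beside the length of these genes. That fit could therefore change their values little, and it says nothing of the part of gene length. ATP6V1C1 and TBC1D24, the other members of at least 5000 bases, were not called. With BafA1 in depleted medium they gave 0.49 (adjusted p = 0.071) and 0.47 (adjusted p = 0.068), each with groups that did not overlap. With depletion under BafA1 they gave 0.30 (adjusted p = 0.21) and 0.22 (adjusted p = 0.33). The part of gene length in these results was not tested.

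**Figure D5:**
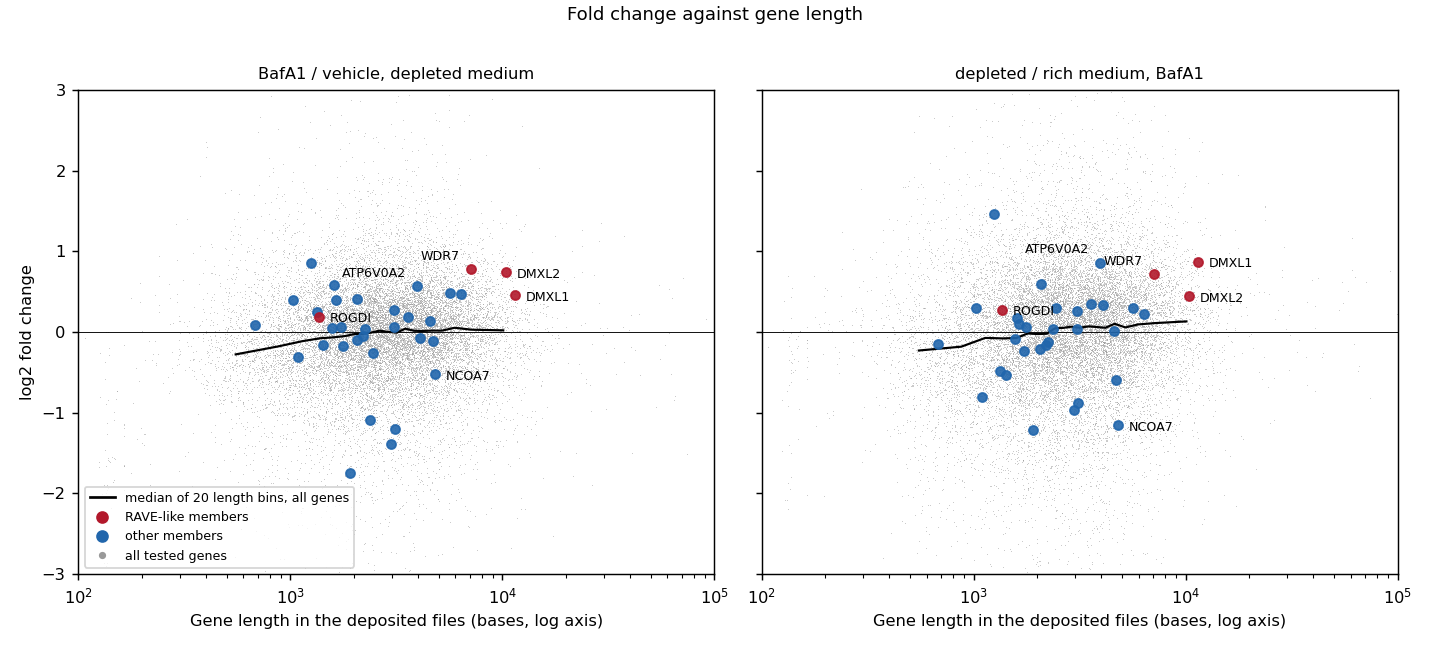
Log2 fold change against gene length (bases, log axis) for BafA1 in depleted medium and for depletion under BafA1, with the RAVE-like members in red, the other members in blue, all tested genes in grey and the median of 20 length bins as a line. The vertical axis ends at ±3, so genes beyond it are not drawn. The line rises slightly with length, and DMXL1, DMXL2 and WDR7 lie above it in both panels.

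TLDc proteins bind the V-ATPase, and in yeast one of them promotes its disassembly. NCOA7, on chromosome 6, 125781115 to 125932034, passed in 3 of the 4 pairwise comparisons. It stood at 48.3, 47.9 and 44.6 CPM in depleted medium with BafA1 and at 63.3, 69.9 and 69.3 CPM in depleted vehicle, against 118, 111 and 84.7 CPM in rich medium with BafA1 and 165, 115 and 130 CPM in rich vehicle. All 6 depleted libraries lay below all 6 rich libraries, the depleted groups were separate from each other, and the rich groups overlapped. NCOA7 fell by 1.01 on the log2 scale with depletion in vehicle (SE 0.16, adjusted p = 0.00036) and fell by 1.16 with depletion under BafA1 (SE 0.16, adjusted p = 0.00021), the lowest value of the called members in each. Both calls held in all 21 alternatives. It fell by 0.52 with BafA1 in depleted medium (SE 0.16, adjusted p = 0.048), the only called member lower there. That call was lost in 11 of 21, among them DESeq2 size factors, no filter on low counts, and the fits without replicate 1 or 2 of rich medium with BafA1 or without any 1 of the depleted libraries. In rich medium BafA1 gave -0.38 (SE 0.16, adjusted p = 0.14), and the interaction was -0.14 (95% interval -0.67 to 0.38).

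OXR1, a TLDc protein named for oxidation resistance, ranged from 21.7 to 38.9 CPM and was not called. Its depletion values were 0.33 in vehicle (adjusted p = 0.11) and 0.35 under BafA1 (adjusted p = 0.11), with groups that did not overlap. TBC1D24 ranged from 35.7 to 59.6 CPM, and BafA1 in depleted medium gave 0.47 (adjusted p = 0.068), again with separate groups. MEAK7, a further TLDc protein that is not among the 34, fell by 0.61 with depletion in vehicle (adjusted p = 0.0063) and by 0.89 with depletion under BafA1 (adjusted p = 0.00072). ATP6AP1L, a relative of ATP6AP1, rose by 1.44 with depletion in vehicle (adjusted p = 0.035).

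Genes that work beside the pump on the lysosome were counted from lists, and no alternative fits are given for their calls. Of 17 tested chloride-proton exchangers, cation channels and other ion transport genes, 0 were called by edgeR for BafA1 in rich medium. Of all tested genes 10.9% were. At an unadjusted p under 0.05 there were 3 of the 17, where the share over all genes, at least 10.9%, is again not given. With depletion in vehicle 1 rose and 1 fell, against 15.5% and 15.4% of all tested genes: CLCN7, a lysosomal chloride-proton exchanger, rose by 0.98 and CLCN5, an endosomal one, fell by 1.19 on the log2 scale. With BafA1 in depleted medium 3 of 17 rose, against 5.5% of all tested genes, namely CLCN6 (1.17), OSTM1, the CLCN7 partner (0.76), and CLCN3 (0.59). The CLCN3 call stood right at the threshold, with an adjusted p that rounds to 0.05. With depletion under BafA1 4 of 17 rose, against 10.5% of all tested genes, among them CLCN3 (0.87), CLCN6 (0.96) and OSTM1 (0.71). A list of 13 genes held Rag GTPases and Ragulator subunits, which tie mTORC1 to the lysosome and contact the V-ATPase, with the Rag regulators FLCN, FNIP1 and FNIP2 and the amino acid sensor SLC38A9. Of these, 4 rose with BafA1 in rich medium, against 6.15% of all tested genes, and RRAGD gained 2.22 (adjusted p = 0.00029). With depletion in vehicle 6 rose, against 15.5%, with BafA1 in depleted medium 4, against 5.5%, and with depletion under BafA1 4, against 10.5%, while 0 fell in each. The genes that rose were Rag GTPases, FLCN, FNIP1, FNIP2 and SLC38A9, and none of the LAMTOR genes, which encode Ragulator, was called in a pairwise comparison. Of the 4 MiT/TFE factors, TFEC rose by 2.62 with depletion in vehicle (adjusted p = 0.0017) and fell by 1.96 with BafA1 in depleted medium (adjusted p = 0.018). The TFEC interaction was -3.17 (adjusted p = 0.018), with libraries of rich medium with BafA1 scattered from 2.24 to 9.61 TPM. MITF rose by 0.82 with depletion under BafA1 (adjusted p = 0.0050). Of all tested genes 15.5%, 5.91%, 3.83% and 10.5% were called in these directions, in the same order. In none of the 5 comparisons was TFEB or TFE3 called.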

How the data were processed

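Total RNA was depleted of ribosomal RNA and made into stranded libraries, per the labels' protocols. DRAGEN and the build GRCh38 appear in the submitters' processing notes. The annotation and the strand option were not given in the sources used here. The authors deposited for each library an estimated count and a TPM value per gene with its length and effective length, and for the series a table of whole-number counts. Of the estimated counts, 5.08% were not whole, and these were rounded. The deposited count table holds 13518 genes, 29 of the 34 members, and served as an alternative. With R 4.3.3, edgeR 4.0.16 and limma 3.58.1, genes were kept by filterByExpr (minimum count 10, minimum total 15), scaled by TMM and fitted in a robust quasi-likelihood model with 1 mean for each of the 4 groups of 3 libraries (8 residual degrees of freedom), all 12 libraries sharing the spread. The 4 pairwise comparisons and the interaction were contrasts of this fit, with Benjamini-Hochberg adjustment over all tested genes and a threshold of 0.05. The procedure was tested on simulated data. Alternatives were DESeq2 1.42.0 and its size factors, no low-count filter, a replicate block, the series table, removal of mitochondrial, ribosomal protein and small RNA genes, only the libraries compared, each library left out, both libraries that stood apart left out and, chosen after seeing the data, effective-length offsets. The members and gene lists were chosen with earlier results of these data known. Values in every library are given for the 13 members that passed in any comparison and, chosen after their values were seen, for ATP6V0D1 and ATP6V1B1. Library pairs within a group differed by more than sampling noise, so no library is a copy of another in its group. Pairs across groups were not put to this check.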

Additional observations from a re-analysis of the deposited data

Results flagged for a closer look

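The BafA1 response of ATP6V1C2 differed between media by -2.76 (depleted minus rich) on the log2 scale, and it was picked out because edgeR's interaction test of this difference passed the threshold (adjusted p = 0.033). BafA1 went with a lower level in depleted medium (-1.20) and a higher level in rich medium (1.56), neither of which passed in its own comparison.

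The same difference was 0.83 on the log2 scale for WDR7, which also passed the interaction test (adjusted p = 0.045). The values behind it were 0.78 in depleted medium, which passed, and -0.05 in rich medium, which did not.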

How the results depend on the processing

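Of 170 member results, 23 were called; 9 of these calls were kept in every alternative and 14 were lost in at least 1. Of the 147 uncalled results, 30 were called in at least 1 alternative. No value had the other sign where either fit called it, and 148 alternative values of uncalled results did. For BafA1 in rich medium the 0 called members became 2 with the DESeq2 test, 1 with no low-count filter, 1 in the series-wide count table, 1 without both libraries that stood apart, and 0 to 2 with 1 library left out. The count of 8 for depletion in vehicle became 4 with only the libraries compared and 3 to 11 with 1 library left out. The count of 5 for BafA1 in depleted medium became 9 with the DESeq2 test, 12 without both libraries that stood apart, 13 with only the libraries compared and 2 to 10 with 1 library left out. For depletion under BafA1, leaving out 1 library turned 8 into 5 to 10. The interaction's 2 became 1 in the series-wide count table, 0 without both libraries that stood apart and 0 to 3 with 1 library left out. The share of all tested genes called shifted in the same fits. With 1 library left out it was 5.42% to 14.3% for BafA1 in rich medium and 20.2% to 32.7% for depletion in vehicle. It was 4.7% to 16.5% for BafA1 in depleted medium, 12.6% to 29.5% for depletion under BafA1 and 2.12% to 9.93% for the interaction. For BafA1 in rich medium it was 8.17% with no low-count filter and 14.3% in the series-wide count table, where the interaction had 8.89%. The cause of these shifts was not tested.

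Replicate numbers recur in all groups. Of 18 same-number pairs of libraries, 6 had deviations correlated above 0.1 (r from -0.0812 to 0.294 over the 18). The 6 were the pairs of replicates 2 and of replicates 3 among rich vehicle, depleted vehicle and depleted medium with BafA1 (0.209 to 0.294). Pairs of different number and group ran from -0.298 to 0.101, and 10 of 12 libraries correlated best with their own number. The labels name nothing shared by equal numbers and 12 pairs were not above 0.1, so the samples were not treated as paired. For replicates 2 and 3 of those groups, however, these values are a sign of a shared replicate effect, which the main fit leaves out. With the replicate block the counts were 2 for BafA1 in rich medium, 11 for depletion in vehicle and 12 for BafA1 in depleted medium. They were 10 for depletion under BafA1 and 3 for the interaction. The shares of all tested genes called were then 15.7%, 36%, 16.7%, 29.5% and 10.9%, in the same order. The interaction needs all 12 libraries, so the fit with only the libraries compared was not run for it.

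The shallowest library limits genes of few reads, such as ATP6V1C2, and p-values cover the spread between these libraries only.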
